A study of Mus musculus with 6 samples.

Results

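The CREB3 family of membrane-bound transcription factors and the proteases that release them were examined in mouse hepatocytes exposed to IL-1β. The set comprised 7 genes, the 5 factors Creb3, Creb3l1, Creb3l2, Creb3l3 and Creb3l4 and the site-1 and site-2 proteases Mbtps1 and Mbtps2. The genes were selected by symbol with their response to IL-1β already known, so their own values are given as a description with no test. All 7 were present among the 23282 genes of the deposited table, and all 7 were among the 11657 genes with enough counts for the fit across all genes.

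Primary hepatocytes were prepared by collagenase perfusion from livers of C57BL/6N mice (C57BL6/N in the sample labels), plated for 3 h and then cultured for 24 h, either untreated (control, 3 samples) or exposed to IL-1β recombinant protein (3 samples). The series title calls the cells metabolically stressed, and the labels give no diet or stress. The labels do not give the dose of IL-1β for the sequenced cultures or the age, sex and number of the mice, and the design text speaks of 2 samples per group but lists 3. RNA was sequenced by QuantSeq, which reads the 3′ end of polyadenylated transcripts, and the authors deposited the raw number of reads counted on each gene.

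Factors of the CREB3 family are made as proteins anchored in the membrane of the endoplasmic reticulum, with a DNA-binding bZIP domain facing the cytosol. On transport to the Golgi they are cut first by site-1 protease in the lumenal part and then by site-2 protease within the membrane, and the freed amino-terminal part enters the nucleus. The same proteases cut ATF6, a sensor of the unfolded protein response, and the SREBP factors of sterol synthesis. CREB-H, the product of Creb3l3, is enriched in the liver and is known for its roles in acute-phase gene expression and in fasting lipid metabolism. The measurements here are of transcripts, and cleavage of the proteins was not measured.

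The 6 libraries held between 9538741 and 11105408 counts, at which 3 counts correspond to between 0.268 and 0.32 normalized counts. Normalized counts (CPM) are counts scaled to a common library size by TMM and are not divided by transcript length, because QuantSeq reads come from the 3′ end. How well each 3′ end was captured was not measured, so an order of levels between genes is an order of reads. Intervals and limits given below cover counting error only. The ribosomal RNA precursor Rn45s took 11.7 to 14.2% of counts in control libraries and 11.9 to 12.7% in IL-1β libraries. In the fit across all genes, 812 genes were upregulated and 751 downregulated by IL-1β (edgeR's quasi-likelihood test, adjusted p below 0.05), and the log2 fold changes of the genes tested had a median of -0.0018. The labels do not say whether samples came from separate mice, so adjusted p-values measure only the spread between these samples, which may be technical.

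Creb3l3 was the member that differed most between control and IL-1β. It lies on the minus strand of chromosome 10 (GRCm38, chr10:81084333-81098872, Entrez gene 208677). The 3 control libraries held 428, 471 and 273 reads of Creb3l3, and the 3 IL-1β libraries held 48, 27 and 44. On the normalized scale these were 40.2, 42.1 and 27.5 CPM without treatment and 5.13, 2.59 and 4.09 CPM with IL-1β. Every IL-1β library was below every control library, and the lowest control was 5.36 times the highest IL-1β library. The mean was 36.6 ± 7.95 CPM (SD, n = 3) in control and 3.93 ± 1.27 CPM (SD, n = 3) with IL-1β, a log2 fold change of -3.23 (SE 0.20), or 9.35-fold lower.

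Control replicate 3 was the lowest of the untreated libraries for Creb3l3. The coefficient of variation among controls was 21.7%, while counting error alone would give 5.06%. Among IL-1β libraries it was 32.4% against 15.9% from counting, so in both groups the spread was above that of counting alone. Among the 8181 genes that reached 10 CPM in the higher group, no gene had a lower log2 fold change than Creb3l3. Among all 11657 genes tested, only 6430531B16Rik was lower (-3.56), at 1.67 CPM in control and 0.126 CPM with IL-1β, the second value being under 3 counts per library.

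RefSeq lists more than 1 start for Creb3l3, and the sequence before each start is shown because this gene had the largest difference of the family. In all sequences below, on the GRCm38.p6 build, the 250 bases before the start are written 5′ to 3′ on the strand of the gene, and capitals mark matches to the motifs searched. The motifs were the CRE core TGACG and the palindromic CRE TGACGTCA, which contains it, CAAAGNNCA (HNF4-type), TTCNNNGAA (STAT-type), TTGCNNAA (C/EBP-type), NF-κB (GGG and TTTCC with 2 bases between) and ERSE, the element of ATF6 targets (CCAAT and CCACG with 9 bases between). Each was read on both strands. The outer start is the end of the gene in the deposited table (window chr10:81098873-81099122), and the inner start has the window chr10:81092592-81092841.
Creb3l3 outer start: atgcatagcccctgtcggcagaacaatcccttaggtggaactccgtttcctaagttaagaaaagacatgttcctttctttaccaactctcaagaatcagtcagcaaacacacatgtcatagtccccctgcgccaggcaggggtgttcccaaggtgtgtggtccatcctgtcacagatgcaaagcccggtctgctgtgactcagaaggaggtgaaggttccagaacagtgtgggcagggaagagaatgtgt
Creb3l3 inner start: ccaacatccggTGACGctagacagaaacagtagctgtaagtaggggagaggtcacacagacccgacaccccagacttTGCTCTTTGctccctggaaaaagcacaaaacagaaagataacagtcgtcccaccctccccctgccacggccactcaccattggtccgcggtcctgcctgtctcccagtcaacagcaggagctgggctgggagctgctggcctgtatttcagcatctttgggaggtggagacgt
None of these letters was found before the outer start. Before the inner start, TGACG was found 239 to 235 bases upstream, and the HNF4-type letters, read on the other strand, 173 to 165 bases upstream. TGACG was present in 17.8% of 32851 RefSeq promoter windows of this length and CAAAGNNCA in 5.49%. A match is a match of letters and no measured binding, and reads at the 3′ end do not tell which start was used.

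**Figure D1:**
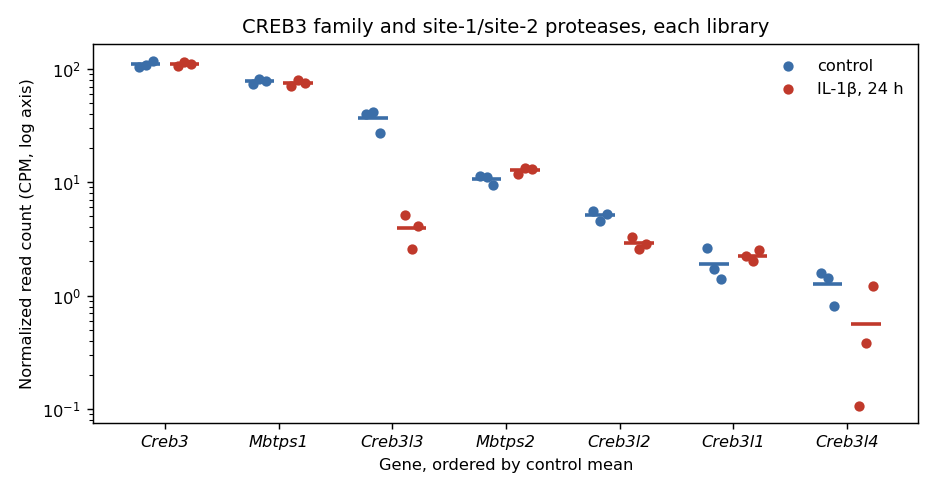
Normalized read count (CPM, log axis) of each gene in each library, with genes ordered by their control mean, points for libraries and bars for the group mean (n = 3 per group). The IL-1β libraries of Creb3l3 sit between 2.59 and 5.13 CPM, below the controls at 27.5 to 42.1 CPM, while Creb3 and Mbtps1 overlap between groups.

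Creb3l2 encodes BBF2H7, a family member known for inducing components of the coat of secretory vesicles in cartilage. It lies on the minus strand of chromosome 6 (chr6:37331021-37442148, Entrez gene 208647). Its counts were 59, 51 and 52 in control and 31, 27 and 31 with IL-1β, or 5.54, 4.56 and 5.23 CPM against 3.31, 2.59 and 2.88 CPM. The groups did not overlap, and the lowest control was 1.38 times the highest IL-1β library. The log2 fold change was -0.80 (SE 0.30). On log2(CPM + 1) values fitted with limma, and on the authors' own log2 values, it was -0.64, a scale that understates changes of low genes. The window before its start (chr6:37442149-37442398) is shown for comparison with Creb3l3, and holds TGACG 196 to 192 bases upstream. Among members whose windows are not printed, TGACG was found 72 to 68 bases upstream of Mbtps1 and before some starts of Creb3l4. It was not found before Creb3 or Mbtps2, and no window was listed for Creb3l1.
Creb3l2: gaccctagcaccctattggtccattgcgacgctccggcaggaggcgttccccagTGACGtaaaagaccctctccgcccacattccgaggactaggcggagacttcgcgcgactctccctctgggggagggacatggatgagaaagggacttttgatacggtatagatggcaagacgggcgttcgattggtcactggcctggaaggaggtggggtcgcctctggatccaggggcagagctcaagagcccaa

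Creb3, which encodes the widely expressed family member CREB3 (Luman), was the most abundant factor of the family. It lies on the plus strand of chromosome 4 (chr4:43562634-43567060, Entrez gene 12913). Its counts of 1110, 1206 and 1164 in control and 1001, 1203 and 1188 with IL-1β gave 104, 108 and 117 CPM against 107, 115 and 110 CPM. The groups overlapped, with means of 109.7 ± 6.69 CPM and 111 ± 4.30 CPM (SD, n = 3 each). The log2 fold change was 0.016 (SE 0.077), and its sign depended on the setting, from -0.039 to 0.063. In the GENCODE annotation the last 133 bases of Creb3 overlap Gba2 on the opposite strand, which was at 28.6 CPM in control and 30.6 CPM with IL-1β. Tln1 overlaps its first 58 bases, also on the opposite strand. Whether counting used strand is not given in the sources used here, so reads of Creb3 and Gba2 may be mixed.

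Creb3l1 and Creb3l4 were near the lower end of what these libraries can resolve. Creb3l1 (chr2:91982328-92024170, minus strand, Entrez gene 26427) encodes OASIS, known for collagen production in bone. Its counts were 28, 19 and 14 in control and 21, 21 and 27 with IL-1β, or 1.41 to 2.63 CPM and 2.02 to 2.51 CPM, and the groups overlapped. The log2 fold change was 0.23 (SE 0.41) and became 0.53 without control replicate 1. Creb3l4 (chr3:90237498-90243512, minus strand, Entrez gene 78284) encodes a family member best known from prostate and testis. Its counts were 17, 16 and 8 in control and 1, 4 and 13 with IL-1β, so the IL-1β libraries ranged from 0.107 to 1.21 CPM and the third overlapped the controls at 0.805 to 1.60 CPM. Its log2 fold change of -1.13 (SE 0.64) moved to -2.29 without IL-1β replicate 3 and to -0.67 without IL-1β replicate 1.

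The transcripts of the proteases differed less between groups than that of Creb3l3. Mbtps1, which encodes site-1 protease (chr8:119508152-119558761, minus strand, Entrez gene 56453), had 789, 919 and 781 counts in control and 666, 826 and 806 with IL-1β. These were 74.0, 82.2 and 78.6 CPM against 71.1, 79.3 and 74.9 CPM, with overlapping groups and a log2 fold change of -0.060 (SE 0.084). Mbtps2, which encodes site-2 protease (chrX:157547822-157598715, minus strand, Entrez gene 270669), had 121, 124 and 94 counts in control and 110, 140 and 140 with IL-1β. These were 9.46 to 11.4 CPM in control and 11.7 to 13.4 CPM with IL-1β. The IL-1β libraries were all above the controls by a narrow margin, and the log2 fold change was 0.26 (SE 0.17). Yy2 lies inside Mbtps2 on the same strand (chrX:157566119-157568985) and had 2.74 CPM in control and 3.51 CPM with IL-1β.

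Thus 3 of the 7 genes, Creb3l3, Creb3l2 and Mbtps2, had groups that did not overlap, beside 28.2% of all genes tested. Because the members were selected with this contrast known, nothing is read from that count. By the same fit, 13.4% of all genes tested had an adjusted p below 0.05, 6.97% upregulated and 6.44% downregulated.

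**Figure D2:**
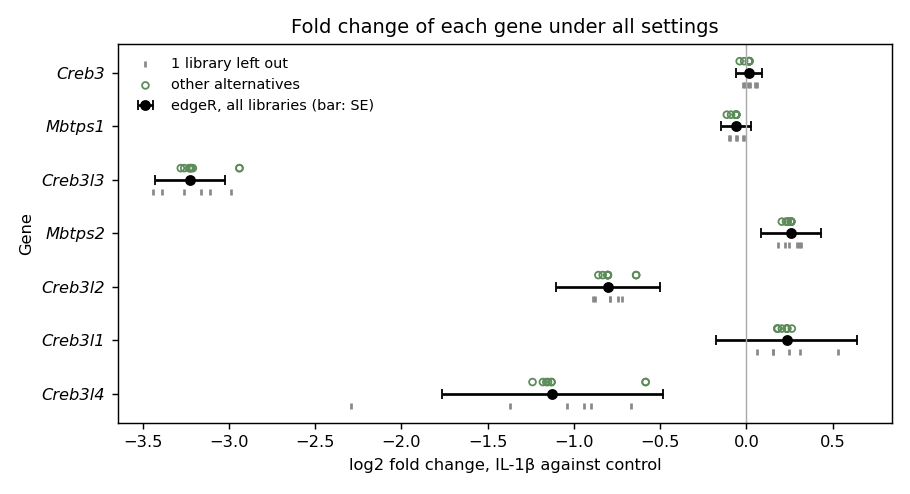
Log2 fold change of IL-1β against control for each gene, with the edgeR value and its standard error in black, the values with 1 library left out as grey ticks and the other settings as green circles. Creb3l3 stays between -3.44 and -2.94 under all settings, and the values of Creb3l4 spread from -2.29 to -0.58.

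In control hepatocytes the order of read levels was Creb3, Mbtps1, Creb3l3, Mbtps2, Creb3l2, Creb3l1 and Creb3l4. The lowest library of each gene was above the highest library of the next, except for Creb3l1 and Creb3l4, whose ranges overlapped. Of all genes tested, 86.7% had a lower control level than Creb3, 80.6% than Mbtps1 and 63.6% than Creb3l3. Mbtps2 exceeded 33.1% of genes, Creb3l2 20.2%, Creb3l1 8.13% and Creb3l4 3.97%. With IL-1β the order was Creb3, Mbtps1, Mbtps2, Creb3l3, Creb3l2, Creb3l1 and Creb3l4. Here Mbtps2 was above Creb3l3 in all 3 libraries, and the ranges of Creb3l3 and Creb3l2 overlapped. Creb3 had 3.00 times the CPM of Creb3l3 in control and 28.2 times with IL-1β, while Mbtps1 had 7.36 times and 5.90 times that of Mbtps2.

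The make-up of the family transcripts was therefore different between groups. Of the reads of the 5 factors, Creb3l3 held 26.1% (95% exact Clopper-Pearson interval 24.0 to 28.3%), 26.7% (24.7 to 28.8%) and 18.1% (16.2 to 20.1%) in the 3 control libraries. In the IL-1β libraries it held 4.36% (3.23 to 5.73%), 2.11% (1.39 to 3.05%) and 3.38% (2.46 to 4.51%). All IL-1β intervals lay below all control intervals, but that of control replicate 3 also lay below those of the other controls. The intervals cover counting error only, so their separation is no test between groups. The mean share was 23.6 ± 4.82% in control and 3.28 ± 1.13% with IL-1β (SD, n = 3 each), and that of Creb3 was 71.0 ± 5.23% and 91.9 ± 1.64%. The 5 factors summed to 155 ± 2.82 CPM in control and 121 ± 2.69 CPM with IL-1β. The 4 factors other than Creb3l3 summed to 118 ± 5.76 CPM and 117 ± 3.94 CPM. Of the difference of 34.0 CPM in the family sum, Creb3l3 made up 32.7 CPM, or 95.9%.

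**Figure D3:**
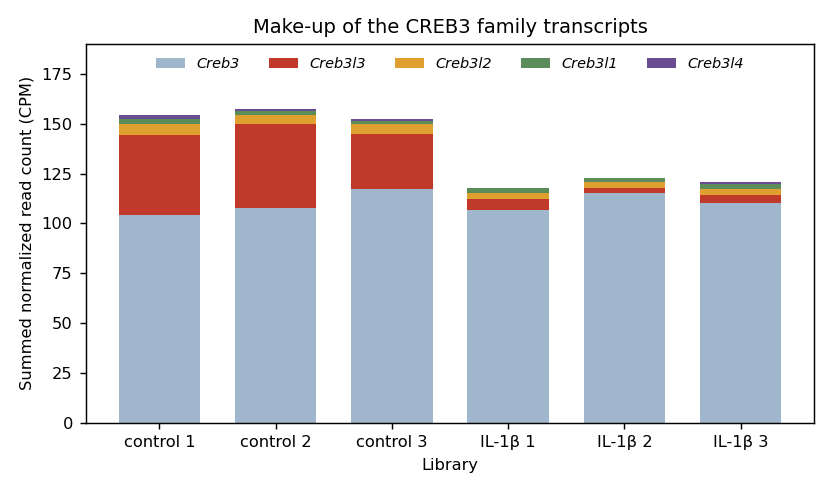
Summed normalized read count (CPM) of the 5 CREB3 family factors in each library, stacked by gene. The Creb3l3 layer is 27.5 to 42.1 CPM in the control libraries and 2.59 to 5.13 CPM in the IL-1β libraries, and the Creb3 layer is 104 to 117 CPM in all 6.

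In bulk samples, fewer cells of a type and less RNA per cell cannot be told apart, so markers of the cell types that a liver preparation could hold are given beside the lower level of Creb3l3. The hepatocyte markers Alb, Apoe, Fgb and Trf were abundant in all libraries, with Alb (albumin) at 16183 ± 515 CPM in control and 14090 ± 576 CPM with IL-1β. The markers of urea synthesis and gluconeogenesis in the list were low, with Cps1 at 2.65 CPM, Ass1 at 0.716 CPM and Pck1 at 0.694 CPM in control. Of 15 hepatocyte markers, 13 were tested, and 9 were downregulated by edgeR, 8 by DESeq2 and 7 by limma. None was upregulated by any of these tools or at an unadjusted p below 0.05 in edgeR, with log2 fold changes from -1.71 to -0.04 and a median of -0.26. Their summed level was 36000 to 36920 CPM in control and 30285 to 32470 CPM with IL-1β, a smaller difference as a fold than that of Creb3l3. The part of this general shift in the level of Creb3l3 was not tested.

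Of 10 macrophage markers tested out of 13, none passed the test in edgeR, DESeq2 or limma, 3 were higher at an unadjusted p below 0.05 in edgeR and 0 lower, with a median of 0.38 and summed levels of 247 to 279 CPM in control and 253 to 286 CPM with IL-1β. Most of that sum was Cd68 and Ctss. Of the other markers tested, Cd5l was at 19.9 CPM in control and 17.2 CPM with IL-1β. Cd74 was at 7.71 and 11.4 CPM and Marco at 3.98 and 6.33 CPM. Clec4f, Vsig4 and Timd4, markers of Kupffer cells, had too few counts for the test, at 1.16, 0.294 and 0.030 CPM in control. Of 12 stellate cell and fibroblast markers, 4 were tested and none passed in the same tools or at an unadjusted p below 0.05. The sum of the list was 48.6 to 52.9 CPM in control and 50.2 to 52.5 CPM with IL-1β. Most of it was Sparc at 19.9 and 20.2 CPM, Dcn at 18.4 and 20.3 CPM and Tagln at 7.66 and 6.06 CPM. Lrat and Des were under 0.3 CPM in both groups. Among 9 of 10 endothelial markers tested, Lyve1 rose while Clec4g, Kdr and Ptprb fell in edgeR, Lyve1 did not pass in DESeq2, and the sum was 91.7 to 102 CPM in control and 84.6 to 92.2 CPM with IL-1β. Of 9 cholangiocyte markers, 4 were tested and Spp1 fell (log2 fold change -1.20). Sox9 (0.21, adjusted p = 0.0519 in edgeR) passed as higher in DESeq2 and limma. Krt19, Krt7, Epcam and Cftr were at or near 0. The cholangiocyte sum, made mostly of Spp1 and Sox9, was 362 to 381 CPM in control and 282 to 287 CPM with IL-1β.

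The genes linked to CREB-H were followed because its transcript was low with IL-1β. Of the 21 genes listed, 16 had enough counts, and 3 of these were upregulated and 6 downregulated. That is 56.2% beside 13.4% of all genes, with a median log2 fold change of -0.32. This list and the other pathway lists below were chosen with earlier results of these data known. Nothing is therefore read from the shares called in them. The upregulated genes encode secreted proteins of the acute phase. Hamp, which encodes the iron hormone hepcidin, was at 7.13, 7.06 and 6.54 CPM in control and 79.9, 52.3 and 72.9 CPM with IL-1β (log2 fold change 3.30, SE 0.15, adjusted p = 1.6e-14 by edgeR). Apcs, which encodes serum amyloid P, was at 133, 140 and 159 CPM against 451, 478 and 475 CPM (1.70, SE 0.07, adjusted p = 4.2e-15). Crp, which encodes C-reactive protein, was at 29.6, 35.3 and 46.4 CPM against 72.0, 65.9 and 67.0 CPM (0.88, SE 0.12, adjusted p = 5.1e-06). All IL-1β libraries were above all controls for these genes, so they stood opposite in direction to Creb3l3.

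The downregulated genes linked to CREB-H take part in lipid and ketone metabolism. Bdh1, a mitochondrial enzyme of ketone bodies, was at 22.8, 20.9 and 13.2 CPM in control and 4.91, 4.03 and 4.27 CPM with IL-1β (log2 fold change -2.11, SE 0.22, adjusted p = 5.8e-08 by edgeR). As for Creb3l3, control replicate 3 was the lowest of the controls. The others, named after their values were seen to complete the count, were Apoc2 (-0.80), a cofactor of lipoprotein lipase, Cpt1a (-0.79), which admits fatty acids to mitochondria, Elovl5 (-0.38) and Fads1 (-0.37), which elongate and desaturate fatty acids, and the apolipoprotein Apoa1 (-0.33). Apoa1 was at 2948, 1987 and 1852 CPM in control and 1948, 1624 and 1826 CPM with IL-1β, and the groups overlapped. Without control replicate 1 its log2 fold change was -0.094 (adjusted p = 0.395), and its call was also lost without any one of the IL-1β libraries and with DESeq2 or limma. The call of Fads1 was lost without IL-1β replicate 3 (adjusted p = 0.053) and that of Elovl5 without IL-1β replicate 1 (adjusted p = 0.061).

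Among the genes linked to CREB-H that did not pass the test, the most abundant were Insig2, which holds SREBP in the endoplasmic reticulum, at 120 CPM in control and 122 CPM with IL-1β, Apoa4 at 74.8 and 65.7 CPM, and the elongase Elovl2 at 38.2 and 31.0 CPM. Apoa4 and Elovl2 had no overlap between groups, with adjusted p of 0.179 and 0.0803 in edgeR. The hepatokine Fgf21 had 2 reads over all libraries, and Cidec, Pck1, G6pc and Kiss1 had 26, 33, 23 and 10, so these genes did not pass the filter on low counts and were not tested under it.

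The promoters of Hamp and Apcs are shown because they had the highest log2 fold changes of the upregulated genes linked to CREB-H. Their windows are chr7:30944030-30944279 and chr1:172895055-172895304, both on the minus strand.
Hamp: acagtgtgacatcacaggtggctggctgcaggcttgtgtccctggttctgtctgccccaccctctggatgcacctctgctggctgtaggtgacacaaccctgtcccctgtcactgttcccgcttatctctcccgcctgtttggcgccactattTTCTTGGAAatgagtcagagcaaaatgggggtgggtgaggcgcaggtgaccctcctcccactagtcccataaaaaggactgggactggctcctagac
Apcs: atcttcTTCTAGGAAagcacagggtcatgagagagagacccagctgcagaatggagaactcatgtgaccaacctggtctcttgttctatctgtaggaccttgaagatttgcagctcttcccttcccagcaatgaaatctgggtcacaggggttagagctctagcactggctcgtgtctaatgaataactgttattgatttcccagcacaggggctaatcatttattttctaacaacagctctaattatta
Both hold a STAT-type match, 97 to 89 bases upstream in Hamp and 244 to 236 bases upstream in Apcs, as do 7.02% of all windows. None of the other motifs was found in either window, TGACG included.

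The 10 genes linked to CREB3, CREB3L1 or CREB3L2 were examined next. Of the 8 tested, Herpud1 and Hspa5 were upregulated and Sec23a was downregulated. That is 37.5% beside 13.4% of all genes, with a median of -0.02. Herpud1, of the degradation of proteins in the endoplasmic reticulum, was at 47.0, 44.4 and 52.6 CPM in control and 87.9, 97.2 and 93.5 CPM with IL-1β (log2 fold change 0.95, SE 0.09, adjusted p = 1.5e-08 by edgeR). Sec23a, a vesicle coat component known as a target of the Creb3l2 product, was at 44.8, 51.4 and 44.9 CPM against 36.8, 34.7 and 34.7 CPM (-0.41, SE 0.10, adjusted p = 0.007). The groups did not overlap in either gene. Without control replicate 2 the adjusted p of Sec23a was 0.062. Arf4 at 99.8 and 99.8 CPM, Kdelr2 at 79.2 and 77.3 CPM and Edem1 at 35.1 and 41.0 CPM did not pass the test, and the collagens Col1a1 and Col1a2, with 52 and 54 reads in all, were not tested. Sec24d, a vesicle coat partner of Sec23a named after its values were seen, was at -0.54 on the log2 fold scale (adjusted p = 0.0622) with overlapping groups. It passed as lower without IL-1β replicate 3 (adjusted p = 0.0173) and with upper-quartile scaling, total counts, no filter or a replicate block (0.0319 to 0.0472).

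Genes that act on the route of these factors, or as their partners, were examined in the same way. Of 18 listed, 17 were tested, 1 was downregulated (5.88%) and none upregulated in edgeR, DESeq2 or limma, with a median of 0.04. Of all genes tested, 6.44% were downregulated and 6.97% upregulated in edgeR, and nothing is read from the share in this list. At an unadjusted p below 0.05 in edgeR, 1 was higher. The downregulated gene was Hnf4a, which encodes a hepatocyte nuclear receptor known as a partner of CREB-H. It was at 84.6, 91.1 and 87.1 CPM in control and 41.6, 43.8 and 42.5 CPM with IL-1β (log2 fold change -1.04, SE 0.09, adjusted p = 1.6e-09 by edgeR). Atf6 (0.21), Atf6b (0.15), Scap (0.05), Insig1 and Insig2, the CREB3 regulator Crebrf (0.15) and the coregulator Hcfc1 (0.01) were among those that did not pass. Tm4sf20, a regulator of the cleavage of CREB3L1, had 10 reads in all and was not tested.

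The proteases also act on SREBP2 and ATF6, and the known targets of those factors were listed for that reason. Of 12 ATF6 targets, 8 were upregulated in edgeR (66.7% beside 6.97% of all genes), with a median of 0.35. As the list was chosen with earlier results known, nothing is read from that share. None was downregulated in edgeR, DESeq2 or limma, or at an unadjusted p below 0.05. Hspa5, which encodes the chaperone BiP, was at 1663, 1817 and 1678 CPM in control and 2230, 2143 and 2253 CPM with IL-1β (log2 fold change 0.36, SE 0.06, adjusted p = 5.4e-05 by edgeR). The chaperone Hsp90b1 rose by 0.42 and the secreted factor Manf by 0.81, with Herpud1 given above. The other upregulated genes were Calr, Hyou1, Sdf2l1 and Pdia6, named after their values were seen. Without control replicate 2 or 3, or IL-1β replicate 1 or 3, the call of Sdf2l1 was lost (adjusted p of 0.0766 to 0.116), and that of Pdia6 with scaling by total counts (0.0546). Pdia4, Creld2, Sel1l and Dnajb11 did not pass.

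The window before Hspa5 (chr2:34771840-34772089, plus strand) is shown because Hspa5 is on both the ATF6 list and that of CREB3, CREB3L1 and CREB3L2. It holds the ERSE letters 65 to 47 bases upstream and TGACG 157 to 153 bases upstream, and the ERSE letters were present in 0.113% of all windows.
Hspa5: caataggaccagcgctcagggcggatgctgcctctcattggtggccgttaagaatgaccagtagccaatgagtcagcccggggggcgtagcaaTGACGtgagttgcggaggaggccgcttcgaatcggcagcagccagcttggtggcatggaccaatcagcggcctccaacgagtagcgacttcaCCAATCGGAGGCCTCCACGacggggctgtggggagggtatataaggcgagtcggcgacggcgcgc

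Of 14 SREBP2 targets, 5 were upregulated in edgeR (35.7% beside 6.97% of all genes), with a median of 0.14. None was downregulated in edgeR, DESeq2 or limma, or at an unadjusted p below 0.05. Fdps of the mevalonate pathway was at 53.4, 52.6 and 51.9 CPM against 69.3, 69.3 and 68.7 CPM (log2 fold change 0.39, SE 0.09, adjusted p = 0.0022 by edgeR). Sqle (0.29) and Mvd (0.59), also of sterol synthesis, had adjusted p of 0.0422 and 0.0424. Both calls were lost with DESeq2, upper-quartile or total-count scaling, and without control replicate 2 or 3 or IL-1β replicate 2 or 3 (adjusted p of 0.0556 to 0.211), and that of Sqle also with no filter (0.0501) and without IL-1β replicate 1 (0.0746). The count was 3 with DESeq2, 2 with scaling by total counts alone, and 2 to 5 with each library left out. The most abundant targets that did not pass were Hmgcs1 (0.14) and Cyp51 (0.03). The lists share Hspa5, Herpud1, Sel1l, Insig1, Insig2 and Ppara, so their counts are not independent.

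**Figure D4:**
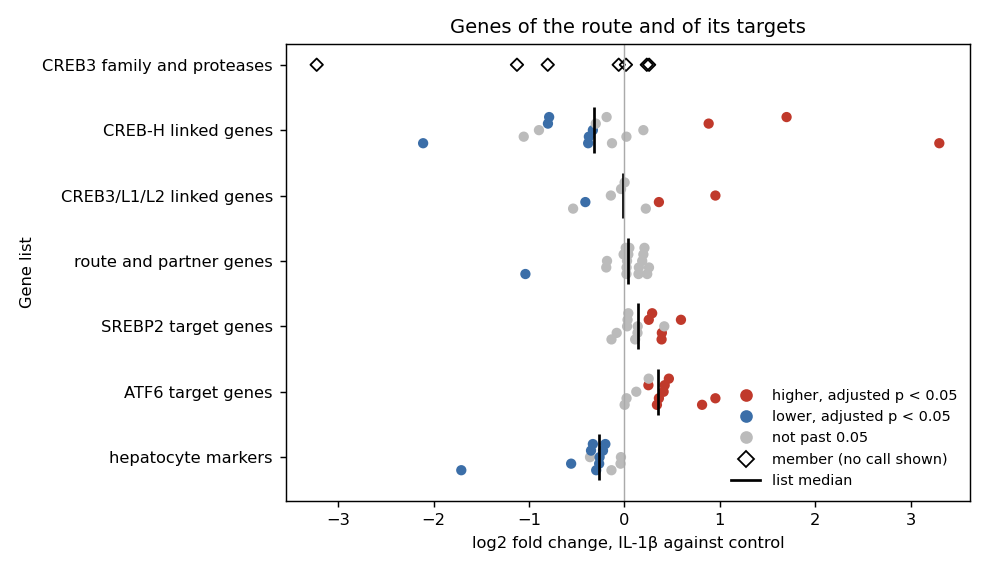
Log2 fold change of IL-1β against control for the genes of each list, with upregulated genes in red, downregulated genes in blue (adjusted p below 0.05), others in grey and the list median as a black bar. The 7 CREB3 family and protease genes are open diamonds with no call, the medians are -0.32 for CREB-H linked genes, 0.35 for ATF6 targets and 0.14 for SREBP2 targets, and Hnf4a is the blue point of the route list.

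The genes whose pattern over the 6 libraries was most like that of Creb3l3 were Serpinf2, Aldh1a1, S100a6, Sgk2 and Cldn4. Likeness was the root mean square difference of log2(CPM + 1) values centred on the control mean, among 7972 genes with a mean of at least 10 CPM. Serpinf2, which encodes the plasmin inhibitor, was nearest at 0.543, with 83.5 ± 7.38 CPM in control and 14.6 ± 3.19 CPM with IL-1β (SD, n = 3 each). Aldh1a1, a retinaldehyde dehydrogenase, followed at 0.548, with 115 ± 10.7 CPM and 22.6 ± 2.05 CPM. The calcium-binding S100a6, the kinase Sgk2 and the tight junction gene Cldn4 had differences of 0.614, 0.644 and 0.653. Their log2 fold changes were from -2.52 to -2.29, and as they were picked for likeness they carry no test.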

How the data were processed

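RNA of 6 samples of primary mouse hepatocytes was sequenced by QuantSeq with single-end reads of 75 nt. The authors aligned reads with Bowtie2 to mm10 (GRCm38) and used edgeR with TMM and CPM; the counting tool is not given in the sources used here. The deposited table holds raw counts for 23282 genes, log2 values of normalized counts plus 1, a linear ratio (fold change) and a p-value. The authors' fold changes and p-values, being their own comparison, were not used. Groups followed the sample labels.

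Counts were analysed with edgeR 4.0.16 in R 4.3.3 (filterByExpr, TMM, quasi-likelihood test, Benjamini-Hochberg adjustment over 11657 genes). CPM computed here lay within 0.05 of the authors' log2 values for all genes. The code was tested on simulated data. Members and gene lists were chosen with earlier results of these data known. Of each pathway list, the text names up to 4 genes with the smallest adjusted p, the 3 most abundant not past 0.05 and genes with no count, of each marker list the 4 most abundant, the 5 genes most like Creb3l3, and genes overlapping a member. Some genes that this rule selects are counted but not reported by name here. Promoters are from RefSeq (GRCm38.p6), overlaps from GENCODE. Alternatives were DESeq2 1.42.0, limma 3.58.1, other scalings and filters, a replicate block, each library left out and, chosen after seeing the data, omitting Rn45s. No pair of libraries in a group was alike within counting noise.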

Additional observations from a re-analysis of the deposited data

How the results depend on the processing

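Of 194 values recomputed under an alternative, 180 stayed close to the reported value, 14 moved and none of the differences that were called reversed. A number of genes called was taken as close when it was within a ratio of 1.5 of the reported number. Creb3l3 was between -3.28 and -2.94 under other tools, scalings and filters and between -3.44 and -2.99 with each library left out, and the difference in its share of the family reads, -20.3 percentage points, was between -23.1 and -18.8. Creb3l2 was -0.639 with limma on log2(CPM + 1) and on the authors' log2 values, and Creb3l4 was -0.584 with both. With each library left out, Creb3l1 was between 0.0604 and 0.53 and Creb3l4 between -2.29 and -0.668. Creb3l4 was not tested under the filter of 10 counts in every sample. The number of SREBP2 targets called was 3 with DESeq2 and also 3 under upper-quartile scaling, but 2 under total-count scaling, and 2 to 5 with each library left out, for which the cause was not tested. Genes called over all genes were 1365 to 1728, and 1131 to 1596 with each library left out. Scaling by total counts made 39.6% of calls upward, against 52.0% with TMM. The labels give no pairing of same-numbered control and IL-1β samples, and the main fit used none. Correlations of their deviations were 0.075, 0.028 and -0.005, which cannot tell whether they shared a mouse or preparation. A replicate block called 1671 genes against 1563. Counting error was largest for Creb3l1, Creb3l2 and Creb3l4. The IL-1β libraries of Creb3l4 also spread beyond it, with a coefficient of variation of 101% against 40.8% from counting.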
